A study of Sus scrofa with 74 samples.

Results

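Transcript abundance in the M. longissimus dorsi, a long back muscle, was compared between F2 pigs with high and with low expression of 3 enzymes of mitochondrial fatty acid oxidation. The animals were chosen by the measured values of these enzymes, as the mean z score of ETFDH, ACAA2 and ACADVL. ACADVL opens the oxidation of very long acyl chains, ACAA2 is the thiolase that closes a round, and ETFDH passes the electrons on to coenzyme Q. Animals were ranked within each block of label numbers, 1 to 33 and 60 to 114, and the upper and the lower part of each block were taken, with 8 animals a side in the lower and 16 in the higher block. This gave 24 high and 24 low animals, 48 of the 74 of the series, and left 26 middle animals. All 74 pigs belonged to a Duroc and Pietrain cross, had a mean end weight of 110 kg and were free of the RYR1 mutation of malignant hyperthermia. The labels name no treatment. Each was measured on 1 Affymetrix Porcine Genome Array, where a gene is read by 1 or several sets of short oligonucleotides called probe sets. The labels give no drip loss, sex, family or slaughter date, and the full-sib families named in the study's methods could not be entered, so the p-values treat the pigs as independent. What the label numbers stand for is not stated.

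Muscle burns long fatty acids in a fixed order. They enter the fibre and are bound and activated to acyl-CoA, the carnitine shuttle carries them through the inner mitochondrial membrane, and the matrix enzymes of beta oxidation shorten them round by round. The electrons released reach the respiratory chain through electron transfer flavoprotein and complex I, and the acetyl-CoA feeds the citric acid cycle. Fatty acids also act as ligands of the PPAR nuclear receptors, which raise the transcription of many of these genes. Fatty acid synthesis runs the other way, in the cytosol, and in the pig takes place mainly in adipocytes.

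The score chose the animals and is given as a description. It ran from -2.09 through a median of -0.72 to -0.08 in the low animals, from -0.67 through 0.07 to 0.56 in the middle animals and from -0.12 through 0.76 to 1.76 in the high animals. High and low animals overlapped slightly across blocks because the ranks were taken within them. In the lower block the lowest high animal had a score of -0.12 and the highest middle animal -0.16, and the lowest middle animal had -0.67 and the highest low animal -0.69. In the higher block these edges lay at 0.57 against 0.56 and at -0.06 against -0.08. On the log2 scale of the scaled intensities the median of ETFDH was 11.20 in the low and 11.99 in the high animals, that of ACAA2 10.24 and 10.80, and that of ACADVL 11.71 and 12.35. The score genes were left out of every result that follows.

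The sides were compared in 5 measures of the arrays. The mean difference between high and low animals within blocks was 0.03 in the log2 level of the array before scaling, 0.04 in the log2 ratio of 3' to 5' control probe sets and 0.003 in the mean correlation with the other arrays of the block, and none of them passed a permutation test (adjusted p = 0.68 for each and for the label number, over 5 measures). The mean z score of 5 adipocyte markers was the exception, with -0.19 in the high and 0.32 in the low animals (difference within blocks -0.51, adjusted p = 0.031, permutation test). A set of 5 arrays stood apart, with a mean correlation under 0.90 with the other arrays of their block, 2 of them among the high and 3 among the low animals. The muscle markers CKM, creatine kinase, and TTN, titin, had medians of 15.80 and 15.27 in the low and 15.70 and 15.31 in the high animals, among the highest levels on the array. The score and the tested probe sets were read on the same arrays, and the part of errors shared by an array was not tested.

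**Figure D1:**
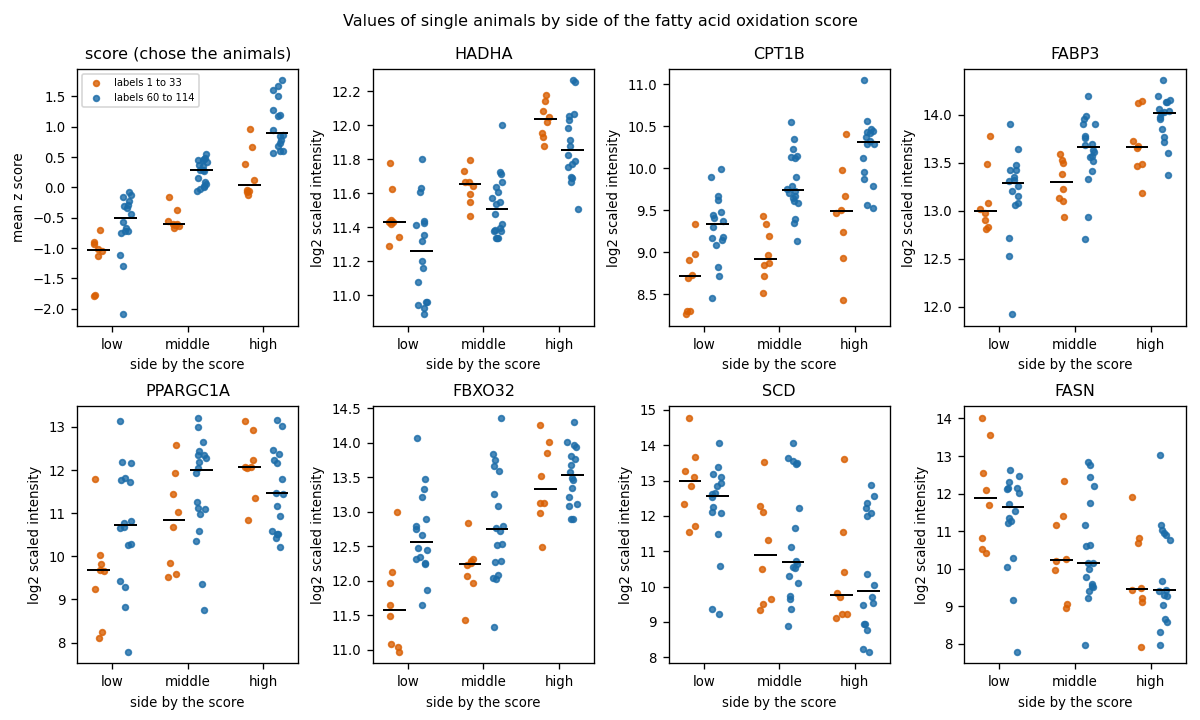
Score (mean z) and log2 scaled intensity of 7 transcripts in single animals, by side of the score and by block of label numbers; each point is 1 pig and each bar the median of its side and block. The medians of HADHA, CPT1B and FABP3 were higher in the high animals of both blocks and those of SCD and FASN lower, and the medians of PPARGC1A and FBXO32 lay farther apart in the orange block, a difference between blocks that did not pass.

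Beyond the score genes, 890 of 11448 probe sets, or 7.77%, differed between the high and low animals at an adjusted p under 0.05 (limma with the block as covariate, Benjamini-Hochberg over all probe sets tested). High animals had the larger value in 484, or 4.23%, and the smaller in 406, or 3.55%. The median difference was 0.35 on the log2 scale among the higher and -0.47 among the lower, and the median of all tested was -0.02. All but 1 of each direction had the same sign in both blocks, with 483 and 405, against 65.5% of all probe sets. Because the call pooled both blocks, this shared sign is largely set by the call and is no test. Without the 5 arrays that stood apart, 931 passed (8.13%), 491 higher and 440 lower (4.29% and 3.84%). Of the genes named below, ECI2, ACOX2, PRKAG1 on both probe sets, AKR1CL1, RBP4, MSTN, HMOX1 and UGP2 on its second probe set did not pass without them (adjusted p = 0.089 for ECI2), and HSD17B10 did (adjusted p = 0.029), as did a further pair of IGF2 probe sets, lower in the high animals (adjusted p = 0.0067 and 0.026). Of the fibroblast and of the smooth muscle markers, 1 probe set each also passed as lower without them. All differences below are log2 differences, high minus low animals, with the SE of the fit.

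Among the genes of fatty acid uptake, the carnitine shuttle and beta oxidation outside the score, 17 of 33 probe sets were higher in the high animals and none was lower. These 17 read 15 of 29 genes, and 25 of the 33 lay above 0 in both blocks. The median difference of the 33 was 0.31. These lists were chosen with results of these data known, so their counts describe them and are no test of the pathway.

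Of uptake and activation, 3 of 10 probe sets were higher and none was lower. FABP3, the fatty acid binding protein of heart and muscle, ran from 11.92 through a median of 13.18 to 13.90 in the low animals, from 12.71 through 13.56 to 14.19 in the middle animals and from 13.18 through 13.96 to 14.35 in the high animals. The high and low ranges overlapped, and 13 of the 24 high animals lay above every low animal of their block. The difference was 0.71 ± 0.10 (SE, adjusted p = 1.1e-05), a 1.64-fold higher level. ACSL1, which links fatty acids to coenzyme A, was higher by 0.59 ± 0.09 (adjusted p = 3.8e-05), and 20 of 24 high animals exceeded every low animal of their block. GOT2, a mitochondrial aminotransferase also described as a fatty acid binding protein of the cell membrane, was higher by 0.38. The other 7 probe sets of this list did not pass, among them both of LPL, the lipase that frees fatty acids from lipoproteins (-0.04 and -0.32), DBI, which carries acyl-CoA (-0.08), and ACSL3, ACSL4 and ACSL5 (-0.17, -0.02 and -0.25).

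At the entry to the mitochondrion 2 of 4 probe sets were higher. CPT1B, the muscle form of the carnitine palmitoyltransferase that controls the rate of entry, ran from 8.26 through 9.16 to 9.99 in the low animals, from 8.51 through 9.63 to 10.54 in the middle animals and from 8.43 through 10.05 to 11.04 in the high animals. Its values overlapped, since single high animals lay at the level of low ones, but 16 of 24 high animals lay above every low animal of their block. CPT1B was higher by 0.87 ± 0.12 (adjusted p = 1.1e-05), a 1.82-fold difference, with 0.77 in the lower and 0.92 in the higher block. SLC25A20, which exchanges acylcarnitine for carnitine, was higher by 0.34 ± 0.09 (adjusted p = 0.011). CPT1A, the liver form, and CRAT, carnitine acetyltransferase, had differences of 0.28 and 0.18 that did not pass.

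Of the beta oxidation enzymes, 12 of 19 probe sets were higher, 18 lay above 0, and the median was 0.38 (0.33 in the lower and 0.41 in the higher block). HADHA, the alpha subunit of the trifunctional protein that carries out the later steps on long chains, had the smallest adjusted p of the named genes. It ran from 10.89 through 11.39 to 11.80 in the low animals, from 11.34 through 11.56 to 12.00 in the middle animals and from 11.51 through 11.94 to 12.26 in the high animals. Only the edges of the ranges overlapped, and 17 of 24 high animals lay above every low animal of their block. The difference was 0.61 ± 0.07 (adjusted p = 7.7e-08), 1.52-fold. HADHB, its beta subunit, was higher on all 3 of its probe sets, by 0.60 to 0.66. The acyl-CoA dehydrogenases of long, medium and short chains were higher too, ACADL by 0.54, ACADM by 0.45 and ACADS by 0.38. ETFA and ETFB, the subunits of electron transfer flavoprotein, were higher by 0.43 and 0.31, the isomerases ECI1 and ECI2, which handle double bonds, by 0.43 and 0.36, and the thioesterase ACOT13 by 0.41 on 1 of its probe sets. HADH, the dehydrogenase for shorter chains (0.13), HSD17B10 (0.20), DECR1 (0.27), ACAD9 (0.16), ACAD11 (0.08) and ECHS1, the hydratase of short chains (-0.15), did not pass.

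**Figure D2:**
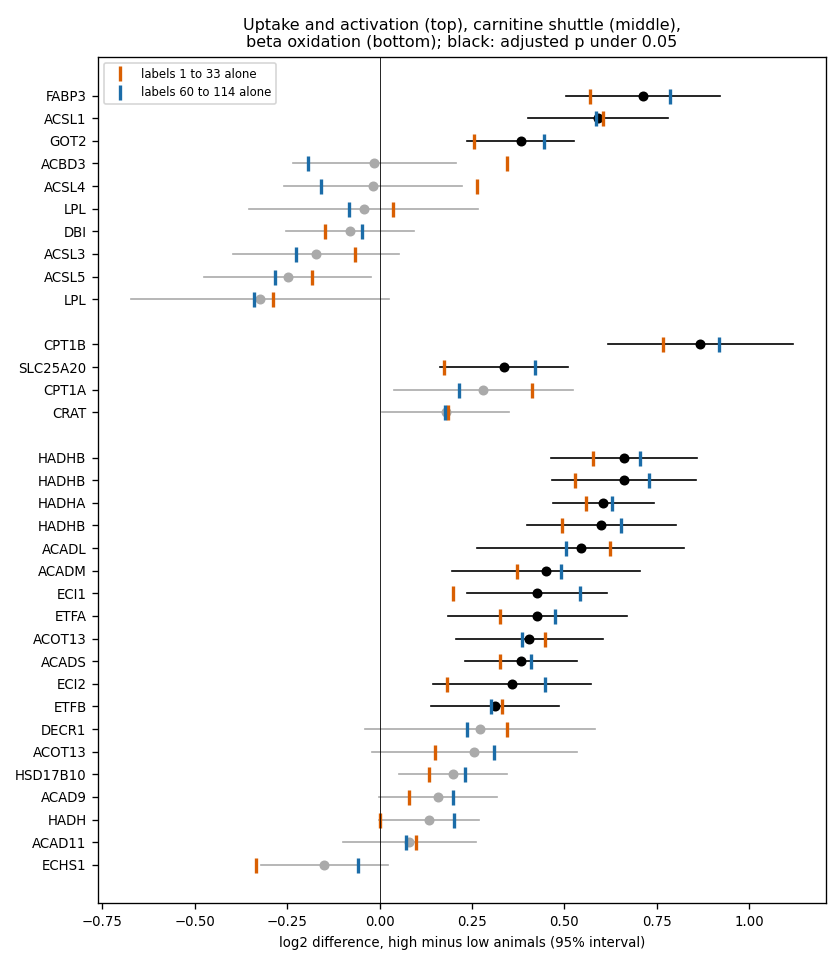
Log2 difference between high and low animals with its 95% interval for the probe sets of fatty acid uptake and activation, the carnitine shuttle and beta oxidation; 1 row is 1 probe set, black marks an adjusted p under 0.05, and the ticks give each block alone. CPT1B, FABP3, HADHA and the HADHB probe sets lie farthest to the right, and ECHS1 and several uptake genes lie at or below 0.

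Known targets of the fatty acid sensing receptors were higher in 6 of 11 probe sets, beside 4.23% of all tested, with a median of 0.41, and none was lower. UCP3, the uncoupling protein of muscle mitochondria, was higher by 1.01 and 1.15 on its probe sets. On the second of these it ran from 7.11 through 9.90 to 11.87 in the low and from 8.33 through 11.03 to 12.93 in the high animals, so that the ranges overlapped widely. PDK4, which shuts off pyruvate oxidation, was higher by 0.57 and 0.41 on its probe sets, and CPT1B and HADHA belong to this list too. ANGPTL4 (0.23 and 0.29), VLDLR (-0.25 and -0.11) and TXNIP (-0.06) did not pass. In the peroxisome, which shortens very long and branched fatty acids, 2 of 12 probe sets were higher, PHYH by 0.61 and ACOX2 by 0.29. With the mean of adipocyte markers as a covariate, described below, 4 of the 11 target probe sets were higher and none of the 12 of the peroxisome. PDK4 did not pass there (limma, adjusted p = 0.051 and 0.22). No probe set of ketone body use (0 of 4) or of branched chain amino acid breakdown (0 of 20) passed, beside 7.77% of all tested. Lists this short cannot tell 0 from that share. Without the 5 arrays that stood apart, 1 of the 4 and 2 of the 20 were higher.

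The regulator with the largest difference was PPARGC1A, the coactivator that drives mitochondrial biogenesis. It ran from 7.79 through 10.28 to 13.13 in the low animals, from 8.75 through 11.35 to 13.21 in the middle animals and from 10.22 through 11.92 to 13.17 in the high animals. No high animal lay under 10.22, and the highest low animal lay close to the highest high animal. The difference was 1.38 ± 0.33 (adjusted p = 0.0061), 2.6-fold, the largest among the named probe sets. It was 2.52 in the lower block (unadjusted p = 2.0e-05, limma) and 0.81 in the higher block (unadjusted p = 0.051, limma). The difference between blocks did not pass (unadjusted p = 0.013, adjusted p = 0.89). Of the regulators of oxidative metabolism 3 of 17 probe sets were higher and 1 was lower, and with the mean of adipocyte markers as a covariate, described below, none of the 17 passed. PRKAG1, a subunit of the AMP-activated kinase, was higher on both its probe sets, by 0.29 and 0.22. PPARG, the receptor of adipocyte differentiation, was lower (-1.22 ± 0.38, adjusted p = 0.039), and its difference with that covariate was -0.39 (adjusted p = 0.58). PPARD and the mitochondrial transcription factor TFAM had differences of -0.02 and 0.02.

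Most probe sets of the respiratory chain and the citric acid cycle were higher too. Of 71 probe sets of complexes I to V, 47 were higher and none was lower, and the median was 0.28. Complex I held 25 of 39, with NDUFS7 (0.62), NDUFS1 (0.58) and NDUFA10 (0.41) of the smallest p. Complex II held 5 of 6, with SDHA at 0.48 and SDHD at 0.38, complex III with cytochrome c 3 of 3, with CYCS at 0.54, complex IV 3 of 7 and ATP synthase 11 of 16. COX7A1, the subunit of complex IV found in heart and muscle, was higher by 0.96 ± 0.14 (adjusted p = 1.3e-05). Its values ran from 11.33 through 12.71 to 13.73 in the low and from 12.43 through 13.66 to 14.13 in the high animals, and 14 of 24 high animals exceeded every low animal of their block. Of the citric acid cycle and pyruvate oxidation 17 of 29 probe sets were higher, with PDHA1, a subunit of pyruvate dehydrogenase, at 0.66, and GOT1 and MDH1, cytosolic enzymes of the malate aspartate shuttle, at 0.85 and 0.48. Coenzyme Q synthesis had 5 of 7 higher, with COQ9 at 0.62 and 0.61. Mitochondrial carriers and import had 13 of 34 higher, with IMMT, a cristae protein, of the smallest p (0.44) and SLC25A11, the carrier of oxoglutarate and malate, of the largest difference (0.66), and 1 lower, the citrate carrier SLC25A1 (-0.52), which exports citrate for fatty acid synthesis. Mitochondrial ribosomal proteins showed less, with 9 of 68 higher and a median of 0.14, and no probe set of the cytosolic ribosome passed (0 of 77, median -0.06). Of antioxidant defence NNT, the transhydrogenase of the inner membrane, was higher by 0.68 and SOD2 by 0.56, and HMOX1 was lower (-0.48).

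**Figure D3:**
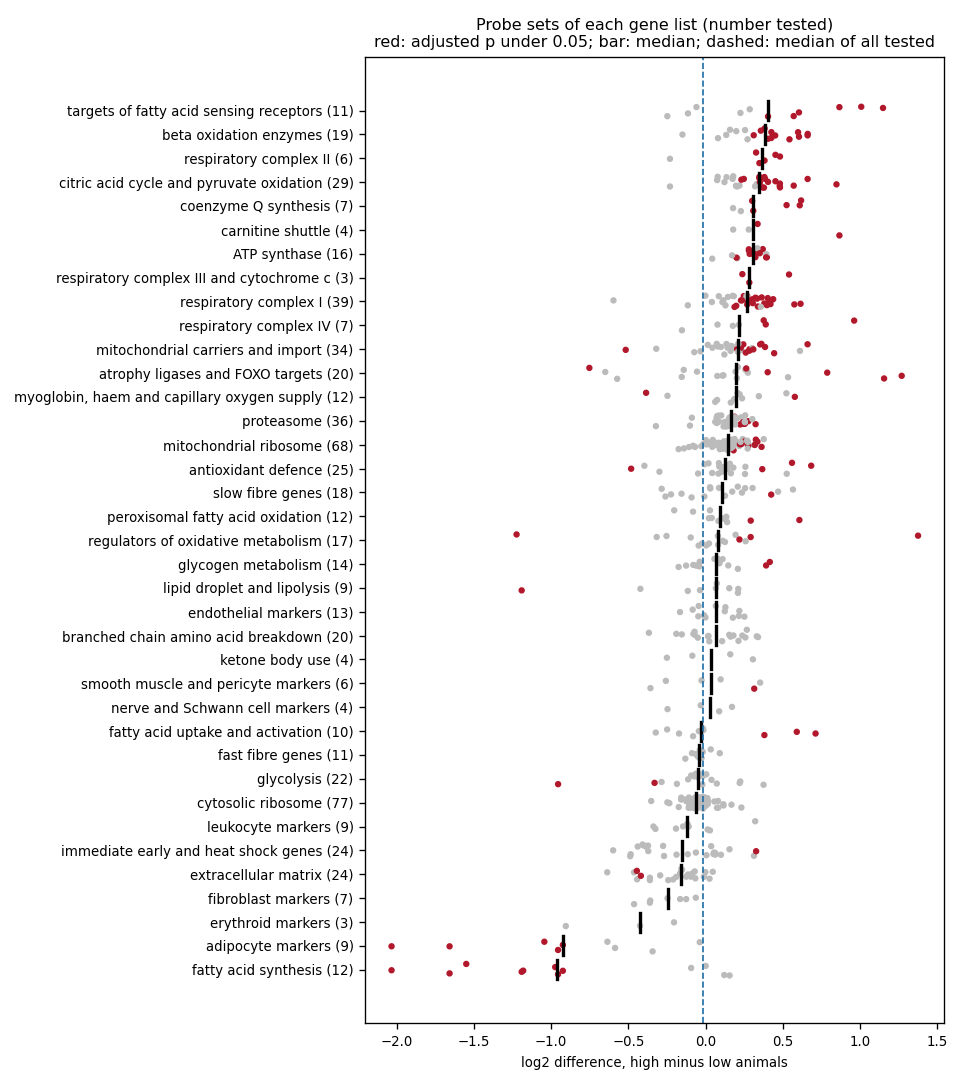
Log2 difference between high and low animals of every tested probe set of each gene list; red points passed an adjusted p under 0.05, black bars are the medians of the lists and the dashed line is the median of all 11448 probe sets. The mitochondrial and fatty acid oxidation lists lie to the right, and fatty acid synthesis and adipocyte markers lie farthest to the left.

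Of the slow fibre genes 1 of 18 probe sets was higher and 0 were lower, beside 4.23% and 3.55% of all tested. It was that of MYL3, a myosin light chain of slow fibres (0.43), which did not pass with the adipocyte covariate (0.30, adjusted p = 0.22). None of 11 of the fast fibre genes passed in either direction, beside 7.77% of all probe sets tested. MYH7, the slow myosin heavy chain, differed by 0.09 and the fast chain MYH2 by -0.13, and the slow troponins TNNC1, TNNI1 and TNNT1 by 0.26, 0.24 and 0.17. Glycolysis had no probe set higher and 2 of 22 lower, ENO1 (-0.33) and ALDOC (-0.95), and with the adipocyte covariate neither passed (-0.27, adjusted p = 0.077, and -0.37, adjusted p = 0.35). Glycogen metabolism had 2 of 14 probe sets higher and 0 lower. Both read UGP2, which makes the glucose donor of glycogen (0.42 and 0.39), and neither passed with the adipocyte covariate (adjusted p = 0.13 and 0.26). Of myoglobin, haem and oxygen supply 1 of 12 probe sets was higher and 1 lower. The first was 1 of the 3 probe sets of VEGFA, a vessel growth factor (0.58, with 0.06 and 0.52 on the others), the second was HIF1A, the oxygen sensing factor (-0.38), and neither passed with the adipocyte covariate (adjusted p = 0.061 and 0.23).

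Of the atrophy ligases and FOXO targets 5 of 20 probe sets were higher and 1 was lower, with a median of 0.20. FBXO32, the muscle ubiquitin ligase atrogin-1, ran on its first probe set from 10.97 through 12.33 to 14.07 in the low animals, from 11.33 through 12.42 to 14.37 in the middle animals and from 12.49 through 13.50 to 14.30 in the high animals. The middle animals lay near the low ones at the median. The differences were 1.16 ± 0.17 and 1.27 ± 0.20 on its 2 probe sets (adjusted p = 1.1e-05 and 2.3e-05). Within blocks the first was 1.75 and 0.86, and the difference between blocks did not pass (unadjusted p = 0.011, adjusted p = 0.89). MAP1LC3B, an autophagosome protein, was higher by 0.40 and 0.26, and FKBP5, which binds steroid receptor complexes, by 0.79 on 1 of its probe sets. MSTN, myostatin, which restrains muscle growth, was lower on 1 of its probe sets (-0.75) and did not pass on the other (-0.57). The proteasome had 7 of 36 higher, with PSMC1 (0.32), PSMA2 (0.28) and PSMD1 (0.25), and a median of 0.16. Outside these lists, probe sets of large positive difference were those of RETREG1, a receptor of endoplasmic reticulum autophagy (1.03 on each of its probe sets), SMPDL3A, a sphingomyelinase-like enzyme (1.1), MAOB, monoamine oxidase B (0.94), and AKR1CL1 (0.93).

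The largest negative differences were those of fatty acid synthesis. SCD, the desaturase that makes oleic acid, ran from 9.21 through 12.63 to 14.78 in the low animals, from 8.87 through 10.68 to 14.06 in the middle animals and from 8.16 through 9.76 to 13.60 in the high animals. The ranges overlapped widely, and 11 of 24 high animals lay below every low animal of their block. The difference was -2.03 ± 0.41 (adjusted p = 0.00096), a 4.1-fold lower level. FASN, fatty acid synthase, was lower on all 3 probe sets, with differences of -0.92 to -1.66, and ELOVL6, which lengthens palmitate, on all 3 of its own, with -0.97 to -1.55. DGAT2, which closes triglyceride synthesis, differed by -1.19. In a list of fatty acid synthesis put together after these values were seen, 8 of 12 probe sets were lower and none was higher, with a median of -0.96. The other lowest named probe sets were SFRP1 (-1.31), a Wnt antagonist, NPG4 (-1.30), a protegrin peptide, RBP4 (-1.22), which carries retinol, CDO1 (-1.07), a cysteine dioxygenase, and MGST1 (-1.02), a glutathione transferase. NPG4 ran up to 15.42 in the low animals, around a median of 8.27, and its difference was -0.80 without the 5 arrays that stood apart. Of the matrix, 2 of 24 probe sets were lower, beside 3.55% of all tested. They were COL5A1 on 1 of its probe sets (-0.44) and NID2 (-0.42). Of the 24, 22 lay below 0, with a median of -0.16.

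Markers of fat cells moved with these results. Of the adipocyte markers 5 of 9 probe sets were lower and all 9 lay below 0, with a median of -0.92, and 4 of the 5 read SCD and FASN. ADIPOQ, adiponectin, differed by -1.04 ± 0.29 (adjusted p = 0.018), FABP4 by -0.59 (adjusted p = 0.10), CIDEA by -0.64, RETN by -0.34 and CFD by -0.04. The log2 of the summed level of 7 markers, SCD and FASN among them, ran from 12.70 through 14.28 to 16.08 in the low animals. In the high animals this sum ran from 12.14 through 13.21 to 14.93. LEP, leptin, had a median of 6.85, below the lowest level tested. In whole muscle, fewer fat cells and less RNA per fat cell cannot be told apart. With the mean z score of ADIPOQ, FABP4, CIDEA, RETN and CFD as covariate, 209 probe sets passed (1.83%), 166 higher and 43 lower (1.45% and 0.376%). Of the 33 probe sets of the fatty acid pathway 13 were higher there, and of complexes I to V 20 of 71. ACADM, ETFA, ETFB and ECI2 no longer passed (limma, adjusted p = 0.11, 0.14, 0.15 and 0.12). HADHA (0.59, adjusted p = 2.4e-06), CPT1B (0.81) and FBXO32 (0.95) passed, and so did SCD (-1.62, adjusted p = 0.031). FASN (-1.16, adjusted p = 0.074), ELOVL6, DGAT2 and PPARGC1A (1.01, adjusted p = 0.11) did not. The calls of SFRP1 (-0.59), NPG4 (-0.72), RBP4 (-0.71), CDO1 (-0.62) and MGST1 (-0.44) also ended there. So did those of RETREG1 (0.88 and 0.92), SMPDL3A (0.91), MAOB (0.84) and AKR1CL1 (0.96). Whether fat cell content or another property of the animals sets these differences was not tested.

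**Figure D4:**
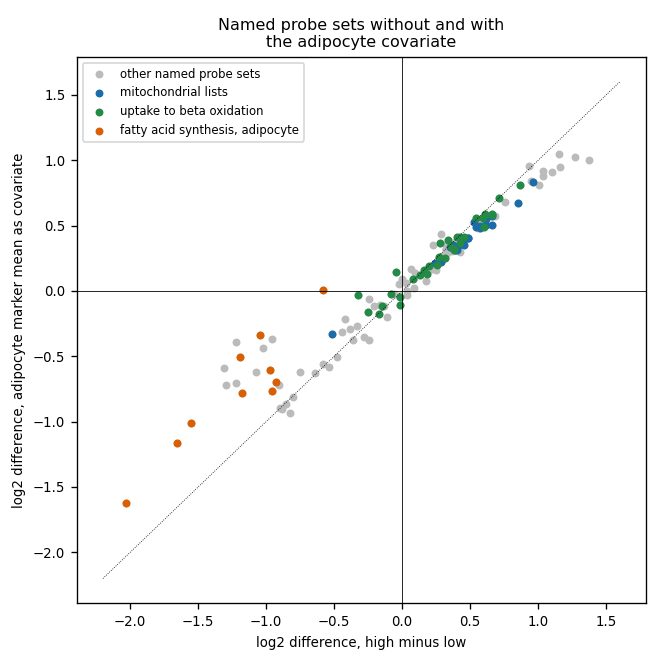
Log2 difference between high and low animals of the named probe sets without (x axis) and with (y axis) the mean z score of 5 adipocyte markers as covariate; the dotted line marks equal values. Mitochondrial and fatty acid oxidation probe sets lie close to the line, and those of fatty acid synthesis and adipocyte markers lie nearer to 0 on the y axis than on the x axis.

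Markers of the other cell types were read in short lists, beside 7.77% of all probe sets called. No probe set of the endothelial (0 of 13), leukocyte (0 of 9), erythroid (0 of 3), fibroblast (0 of 7) or nerve and Schwann cell markers (0 of 4) passed. Lists of this size cannot tell 0 from that share. All 7 of the fibroblast and all 3 of the erythroid probe sets lay below 0, however, with medians of -0.25 and -0.42. Near the threshold were COL1A2 (-0.46, adjusted p = 0.070, limma) and THY1 (-0.36, adjusted p = 0.075) of fibroblasts and ALAS2 of erythroid cells (adjusted p = 0.052). PECAM1 and RAMP2 of the endothelium differed by -0.00 and 0.07, CD74 and CD163 of leukocytes by 0.03 and 0.32, DCN and LUM of fibroblasts by -0.16 and -0.36, HBB and ALAS2 of erythroid cells by -0.20 and -0.91, and S100B and MBP of nerve by -0.25 and 0.09. Of the smooth muscle markers 1 of 6 was higher, DES, desmin (0.32), which skeletal muscle fibres also hold, and ACTA2 differed by 0.10. Without the 5 arrays that stood apart, 1 fibroblast and 1 smooth muscle probe set passed as lower, beside 0 of each with all arrays. The erythroid sum ran up to 13.60 in the low and 10.83 in the high animals, with medians of 9.84 and 9.28. KDR and FLT1 of the endothelium and PTPRC of leukocytes lay below the lowest level tested.

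The blocks allow a reading in animals a call did not use. In the higher block alone 373 probe sets, or 3.26%, passed, and in the lower block alone 0 (0.0%; 1102, or 9.63%, at an unadjusted p under 0.05 with limma). Of the 373, 354 had the same sign in the lower block, or 94.9%, against 65.5% of all probe sets, and 128 also had an unadjusted p under 0.05 there, or 34.3% against 8.09%. None of the 373 had the opposite sign at that p. The difference between blocks passed for 0 probe sets (0.0%; 552, or 4.82%, at an unadjusted p under 0.05 with limma).

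**Figure D5:**
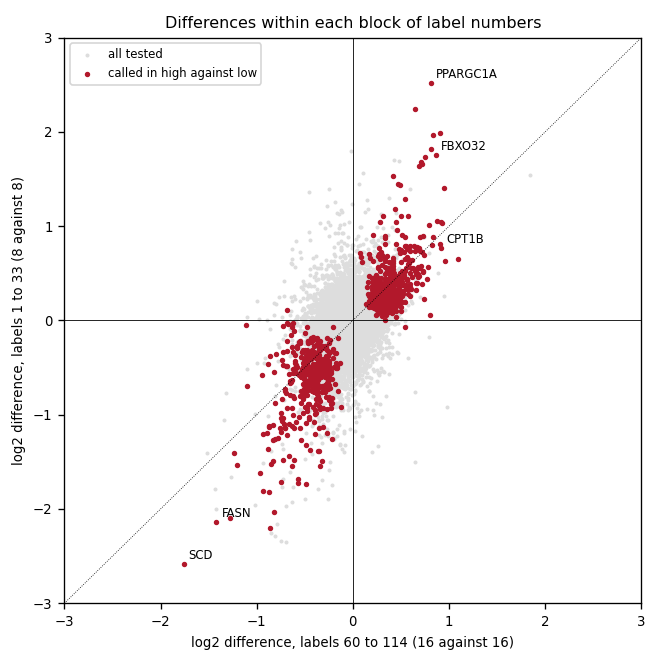
Log2 difference between high and low animals in the block of labels 60 to 114 (x axis, 16 against 16) and of labels 1 to 33 (y axis, 8 against 8), with all probe sets in grey and the 890 called in both blocks together in red; the dotted line marks equal values. All but 2 red points lie in the lower left and upper right, which a call on both blocks together largely sets in advance. PPARGC1A and FBXO32 lie above the line.

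In the 26 middle animals the slope on the score passed for 0 probe sets (0.0%; 1073, or 9.37%, at an unadjusted p under 0.05 with limma). Of the 890 called probe sets 593, or 66.6%, had the same sign there, against 55.5% of all. With an unadjusted p under 0.05 and the same sign there were 97 of the 890, or 10.9%, against 6.11% of all, and 9 had the opposite sign. By direction these were 30 of the 484 higher probe sets, or 6.2%, which is near the share of all. Of the 406 lower probe sets they were 67, or 16.5%. The slope of SCD was -3.24 ± 1.51 per unit of score (unadjusted p = 0.041), that of PPARGC1A 2.43 ± 1.1 (unadjusted p = 0.035) and that of PDK4 on its first probe set 1.25 ± 0.34 (unadjusted p = 0.00093), and none of them passed after adjustment. HADHA and CPT1B had slopes of 0.06 ± 0.20 and 0.33 ± 0.37. Slopes of the sign opposite to the difference were those of FBXO32 (-0.21 ± 0.70 and -0.13 ± 0.73), UCP3 (-0.39 ± 0.69 and -0.40 ± 0.77) and ACADS (-0.49 ± 0.25). Of the fatty acid pathway 21 of 33 probe sets had a slope above 0, and of complexes I to V 42 of 71. The middle animals span a narrow range of the score, which limits what these slopes can show.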

How the data were processed

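RNA of the M. longissimus dorsi of 74 pigs was hybridised by the authors to 1 array per animal. The authors analysed the arrays with GCOS 1.1.1 and estimated expression with PLIER; the deposited table holds linear intensity values of 24123 probe sets, and the sources used here do not say which of these algorithms gave them. Arrays were not at a common level, so each was scaled to a mean of 500 without the lowest and highest 2%, given a floor of 1 and put on a log2 scale. Controls left out, the 11453 probe sets with the highest medians were used, 6153 of them with 1 symbol in the platform annotation, and the 5 of the score genes were removed. High and low animals were compared with limma 3.58.1 in R 4.3.3, with the block as covariate, also within blocks and as an interaction. The middle animals were fitted on the score. Array measures were compared by 100000 two-sided permutations of sides within blocks. The fit was tested on simulated data. The number of arrays limits the precision.

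The members and lists were chosen with earlier results of these data known. Named genes are all kept genes of the 4 fatty acid lists, the 12 probe sets at each end, up to 3 genes of smallest p of every other list with up to 2 in the other direction, and the 2 markers of highest level of each cell type. PPARD, TFAM, FKBP5, further probe sets of named genes, the other adipocyte markers, the muscle and fibre markers, ELOVL6 and FASN on further probe sets, IGF2 and PTPMT1 were added after values were seen. Tools were Python 3.11.15, numpy 2.4.6, pandas 2.3.3, scipy 1.17.1 and matplotlib 3.10.9.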

Additional observations from a re-analysis of the deposited data

Results flagged for a closer look

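Among the fatty acid lists and the probe sets at either end, 126 groups of 8 animals of the lower block were looked at for a single animal far from the others, and 14 groups, or 11.1%, held one (the gap to the nearest animal over the whole range above Dixon's critical value), where chance gives about 1 in 20. The groups are the same animals read over many probe sets, some of the same gene. They are not independent, so the comparison with chance is no test. The animal with label number 23, whose array stands apart, was that animal in 9 of them. In the high animals it was the lowest for HADHB on 2 probe sets (gaps of 0.602 and 0.53 of the range), DECR1 (0.653), ACOT13 on 2 probe sets (0.612 and 0.578) and ETFA (0.64, with 10.05 against 11.31 for the next animal), and the highest for HSD17B10 (0.624), TXNIP (0.54) and MAOB (0.578). Animal 26, also apart, was the lowest high animal for HADH (0.637) and NPG4 (0.528), and animal 4 for ANGPTL4 (0.546). Among the low animals of that block, animal 11 was the lowest for ACSL4 (0.542) and animal 20 for UCP3 on its first probe set (0.582, with 5.74 against 7.65). Without the 5 arrays that stand apart, 17 of 33 probe sets of the fatty acid pathway were higher, with HSD17B10 among them and ECI2 no longer.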

How the results depend on the processing

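With the values as deposited and not scaled, 6281 probe sets were higher and 48 lower, 99.2% of calls higher against 54.4%, with a median difference of 0.30, and only 16 high and 19 low animals were those of the main comparison; 3602 were called in the lower block and 3476 in the higher. There the sign turned for LPL (0.45), ACBD3 (0.50), ACSL3 (0.41), DBI (0.33), ACSL4 (0.50), ECHS1 (0.26), VLDLR (0.29), HIF1A (0.18), NID2 (0.043), MSTN (0.33), HBB (0.60), DCN (0.28), LUM (0.67) and IGF2 on 1 probe set (0.45), and under no other alternative did a called named probe set turn. Quantile normalization gave 653 higher and 357 lower, or 64.7% higher. With no filter on low values 260 were lower and 161 were called in the higher block, and among the 5000 of highest median 208 were lower (69.2% of calls higher) and 9 were called in the lower block; fewer or more probe sets tested change both counts. Z scores within blocks gave 791 and 753, 610 in the higher block and 5 differing between blocks. The score of ETFDH and ACAA2 gave 908 and 841 and 6 differing between blocks, that of ETFDH and ACADVL 614 lower and 816 in the higher block, and that of ACAA2 and ACADVL 214 in the higher block. Without the block 305 were higher and 218 lower, and with the slope over all animals 841 and 725. Adding 16 before the log gave 4 and array covariates 12 in the lower block, and narrower upper and lower parts of each block 2 in the middle animals. The adipocyte covariate and the removal of the 5 arrays that stand apart were chosen after seeing the data. The first gave 166 higher and 43 lower, 79.4% of calls higher, and ended the call of 56 of the 148 named probe sets, and the second gave 491 and 440. Where no cause is given, it was not tested. No paired analysis was possible because all animals form a single group with running numbers. Arrays have no read depth, and probe sets near the filter are the least certain.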

Other observations

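IGF2, an insulin-like growth factor, was lower on 6 of its 10 tested probe sets and higher on none, and was chosen after its values were seen. On the probe set of highest level it ran from 12.04 through 13.83 to 15.09 in the low and from 10.85 through 13.17 to 14.45 in the high animals, with a difference of -0.88 ± 0.25 (adjusted p = 0.020 with limma). The 10 differences ran from -0.90 to -0.02, and with the adipocyte covariate none of the 10 passed, although that of the highest probe set was -0.90. PTPMT1, a mitochondrial phosphatase of cardiolipin synthesis, also chosen after its values were seen, was higher by 0.76 ± 0.10 (adjusted p = 2.9e-06 with limma), and 0.68 with the covariate.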
